A study of Mus musculus with 6 samples.

Results

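The MAP kinase phosphatases are dual-specificity phosphatases, encoded by Dusp genes, that switch off the mitogen-activated protein kinases ERK, JNK and p38. Their 9 members here were chosen by gene symbol, with earlier results of these data known. All 9 were found among the 19938 genes that the array measured with a single symbol. They were read in CD11b+Gr-1+ liver cells, sorted from C57BL/6 mice bearing tumours of EL4, a transplantable mouse T cell lymphoma. By label they are myeloid-derived suppressor cells (MDSC), immature myeloid cells of granulocytic and monocytic type that can restrain T cells. There were 3 arrays from mice injected with PBS, which the labels also call untreated, and 3 from mice injected with Con A, the lectin concanavalin A, which stimulates T cells and brings on acute hepatitis in mice. All 6 came from mice killed 3 hours after injection, and the mice of both groups carried the tumour. The dose is unsettled, since the labels state it both as 12.5 mg/kg and as 12.5 ug/kg. Whether each array held the cells of a separate mouse is not said for the 3 mice per group, so the p-values cover the spread among these arrays only, which may be technical.

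A MAP kinase is active while a threonine and a tyrosine in its activation loop both carry phosphate, and these phosphatases remove both. Dusp5, Dusp6 and Dusp7 encode enzymes selective for ERK, and of these the Dusp5 product sits in the nucleus and the Dusp6 and Dusp7 products in the cytoplasm. Dusp8, Dusp10 and Dusp16 encode enzymes that act mainly on the stress kinases JNK and p38. Dusp1, Dusp2 and Dusp4 encode nuclear enzymes of broader range whose genes many stimuli induce early. In myeloid cells these enzymes are known as negative feedback on inflammatory signalling, and several of the genes are themselves transcribed in response to the kinases they restrain.

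After Con A, 2 of the 3 ERK-selective phosphatase genes among the members fell, and the 3 stress-kinase phosphatase genes rose. Dusp9, an ERK-selective phosphatase gene outside the 9 members, did not pass the test. Dusp7 and Dusp6 fell 3.33-fold and 2.63-fold, and Dusp5 was lower on every Con A array without passing the test. Dusp10, Dusp16 and Dusp8 rose 2.36-fold, 2.10-fold and 1.75-fold. Dusp1, Dusp2 and Dusp4 did not pass the test. Thus 5 of 9 members passed, 3 higher and 2 lower, where 11.8% of all genes passed, 4.59% higher and 7.22% lower. The arrays of the 2 groups did not overlap for 7 of 9 members, 4 higher and 3 lower, against 29.9% of all genes, 14.4% higher and 15.6% lower. Both counts describe members chosen with earlier results known, so they are no test of the family. Without PBS replicate 1 the number of members past the threshold was 3.

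The stretches just upstream of 4 of these genes are printed because these classes differed in direction, and they come from RefSeq (build GRCm38.p6). They are Dusp5 and Dusp7 of the ERK-selective class and Dusp8 and Dusp16 of the stress-kinase class. Of these, Dusp5 did not pass the test. Dusp6 and Dusp10, which passed, are not printed, and their stretches held no match to the motifs searched below. Each is the 250 bases before the annotated start, 5′ to 3′ on the strand of the gene, in lower case with matches to the searched motifs in capitals. That of Dusp5 lies at chr19:53528895-53529144 on the plus strand. That of Dusp7 lies at chr9:106368382-106368631 on the plus strand. The Dusp8 stretch is chr7:142095285-142095534 on the minus strand, and the Dusp16 stretch is chr6:134792629-134792878 on the minus strand.
Dusp5 promoter: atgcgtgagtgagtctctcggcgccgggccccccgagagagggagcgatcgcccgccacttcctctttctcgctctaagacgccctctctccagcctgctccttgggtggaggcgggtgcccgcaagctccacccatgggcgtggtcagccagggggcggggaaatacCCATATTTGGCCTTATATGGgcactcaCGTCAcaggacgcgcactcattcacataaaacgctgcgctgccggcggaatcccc
Dusp7 promoter: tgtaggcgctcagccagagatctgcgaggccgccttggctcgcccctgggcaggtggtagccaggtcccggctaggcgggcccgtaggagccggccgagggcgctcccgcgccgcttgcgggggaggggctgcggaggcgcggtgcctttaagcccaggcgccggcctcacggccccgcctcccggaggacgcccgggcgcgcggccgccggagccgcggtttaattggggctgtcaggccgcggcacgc
Dusp8 promoter: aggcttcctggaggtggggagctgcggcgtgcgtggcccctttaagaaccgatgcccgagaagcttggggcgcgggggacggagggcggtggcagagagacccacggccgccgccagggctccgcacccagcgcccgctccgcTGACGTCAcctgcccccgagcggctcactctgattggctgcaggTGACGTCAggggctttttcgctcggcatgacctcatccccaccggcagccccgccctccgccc
Dusp16 promoter: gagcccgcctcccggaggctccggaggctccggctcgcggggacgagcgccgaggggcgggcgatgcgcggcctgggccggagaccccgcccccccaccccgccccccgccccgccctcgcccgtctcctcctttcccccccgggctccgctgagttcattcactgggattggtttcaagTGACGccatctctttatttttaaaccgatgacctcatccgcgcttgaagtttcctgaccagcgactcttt

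Both strands of these windows were searched for AP-1 (TGAGTCA), CRE (TGACGTCA), the shorter core CRE (TGACG), GAS (TTCNNNGAA), ETS (CCGGAA), the box TATAAA, and kappaB and CArG letters. The Dusp5 window held 2 adjoining CArG matches, CCATATTTGG at bases -82 to -73 from the start and CCTTATATGG at -72 to -63, together with 1 core CRE. CArG letters, to which serum response factor binds, occur in 1.47% of the 32841 windows of the same length. The Dusp8 window held 2 CRE matches, at -107 to -100 and at -63 to -56, and that of Dusp1 held 1, at -143 to -136. CRE letters, to which the CREB and ATF families bind, occur in 1.55% of windows. Each of these CRE matches contains 2 overlapping core CREs, 1 on each strand. The Dusp16 window held 1 core CRE, which 17.8% of windows hold, and Dusp1 held 1 more outside its CRE. None of the 8 motifs occurred in the windows of Dusp2, Dusp6, Dusp7 and Dusp10, which says only that these letters are not in these 250 bases. Dusp4 was not searched. No binding was measured, so a match is a description of the sequence.

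Levels are log2 values, so a difference of 1 is a 2-fold difference, and differences are Con A minus PBS. They come from probe sets of different make-up, so each gene is compared only with itself. The median of an array was 7.05 to 7.08 and its highest value 14.24 to 14.30. Detection calls were not used here. Differences were tested by limma with Benjamini-Hochberg adjustment over all 19938 genes at a threshold of 0.05, and 2355 genes passed. That count was 1140 without PBS replicate 1, 1272 without Con A replicate 2. It was 1480 when Con A replicate 3 was left out. The markers behind the sort were high on all arrays: Itgam, which encodes CD11b, read 12.73 to 13.06, and Ly6g, part of the Gr-1 epitope, read 13.46 to 13.69.

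**Figure D1:**
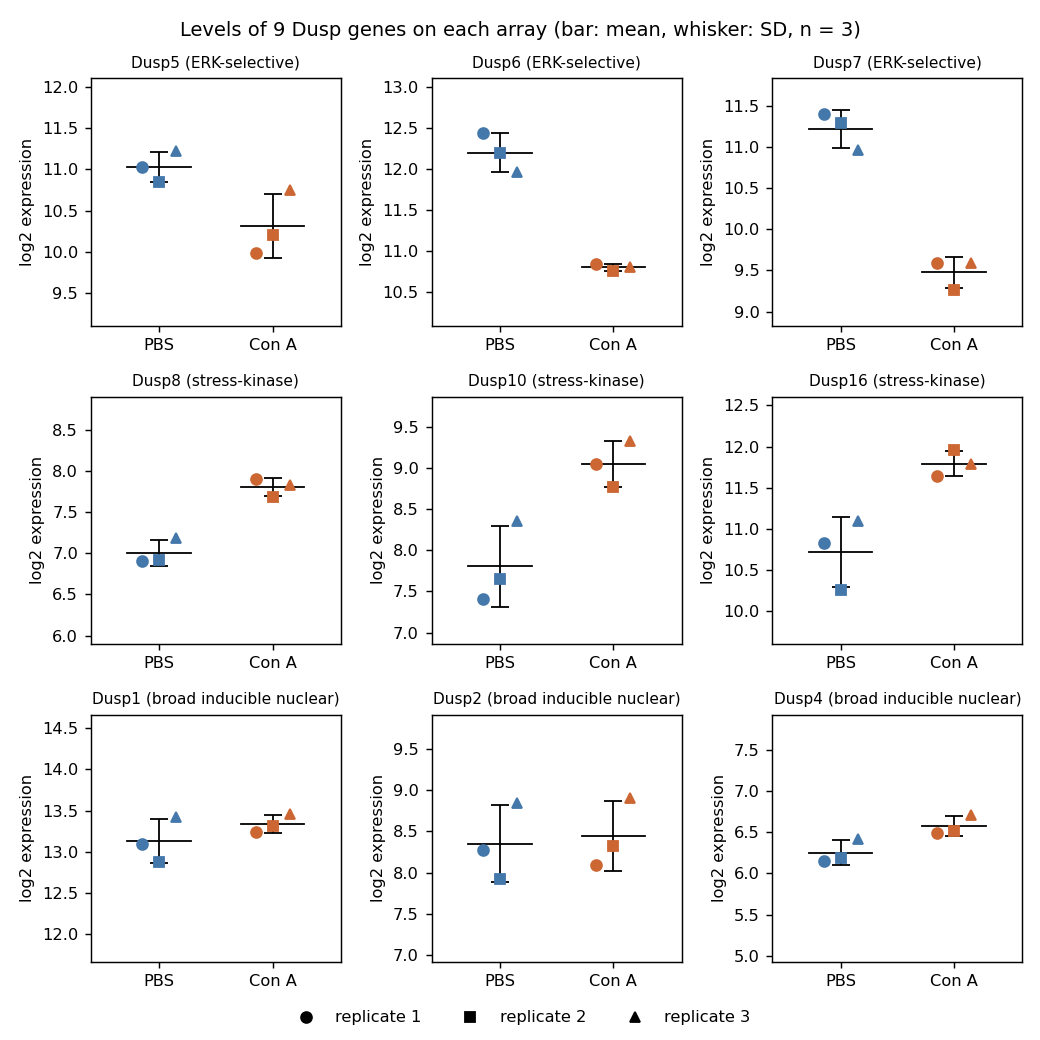
Log2 expression of the 9 Dusp genes on each array, with PBS arrays in blue and Con A arrays in orange; the symbol gives the replicate number, the bar the mean and the whisker the SD of 3 arrays, and each panel spans the same height. The groups are apart for every ERK-selective and stress-kinase gene and for Dusp4, and they overlap for Dusp1 and Dusp2.

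Among the ERK-selective genes, Dusp7 had the largest difference of the 9 members. It read 11.40, 11.29 and 10.96 on PBS arrays 1 to 3 and 9.59, 9.26 and 9.59 on Con A arrays 1 to 3. The groups were separated by more than the spread within either, and the mean went from 11.21 ± 0.23 to 9.48 ± 0.19 (SD, n = 3). Dusp7 fell by 1.74 on the log2 scale (95% interval -2.07 to -1.41, adjusted p = 0.000827), and it ranked 15th from the bottom when all 19938 differences were ordered. With an array left out its fall ranged from -1.86 to -1.63 and passed the test each time.

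Dusp6, the cytoplasmic ERK phosphatase also called MKP-3, read 12.43, 12.20 and 11.97 after PBS. It read 10.84, 10.77 and 10.81 after Con A, with an SD of 0.04 over the Con A arrays and a wider spread over the PBS arrays, at 0.23. Dusp6 fell by 1.39 (95% interval -1.67 to -1.12, adjusted p = 0.000933), 47th from the bottom of all genes. With an array left out its difference ranged from -1.51 to -1.28, past the threshold in all 6 fits. For both Dusp6 and Dusp7, PBS replicate 3 was the lowest of the PBS arrays and still stood above every Con A array.

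Dusp5, the nuclear ERK phosphatase, stood at 11.02, 10.85 and 11.22 after PBS and at 9.99, 10.21 and 10.74 after Con A. Con A replicate 3 came within 0.10 of the lowest PBS array, and the other Con A arrays lay further below. Its difference of -0.72 (95% interval -1.17 to -0.26) missed the threshold after adjustment (adjusted p = 0.0553). Without Con A replicate 3 the difference was -0.93 and passed (adjusted p = 0.0138).

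The stress-kinase genes were higher on every Con A array than on any PBS array. Dusp10, which encodes the JNK and p38 phosphatase MKP-5, read 7.41, 7.66 and 8.36 after PBS and 9.05, 8.76 and 9.32 after Con A. PBS replicate 3 was high for its group, 0.41 below the lowest Con A array. Dusp10 rose by 1.24 (95% interval 0.66 to 1.82, adjusted p = 0.0186). The call was lost without PBS replicate 1 (adjusted p = 0.0703), PBS replicate 2 (0.0547), Con A replicate 1 (0.0565) or Con A replicate 3 (0.0687), where the difference was 1.04, 1.16, 1.24 and 1.10. Without PBS replicate 3 it was 1.51 (adjusted p = 0.00146).

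Dusp16, which encodes the JNK phosphatase MKP-7, read 10.82, 10.26 and 11.09 after PBS and 11.64, 11.96 and 11.78 after Con A. The PBS arrays spread over a wider range (SD 0.42) than the Con A arrays (SD 0.16). Dusp16 rose by 1.07 (95% interval 0.60 to 1.54, adjusted p = 0.015). The call was lost without PBS replicate 1 (difference 1.12, adjusted p = 0.057), Con A replicate 2 (0.99, 0.0725) or Con A replicate 3 (1.07, 0.0536), and it held in the other fits with an array left out.

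Dusp8, a phosphatase of JNK and p38 best known from brain and heart, stood near the array medians. Its probe set read 6.90, 6.92 and 7.18 after PBS and 7.90, 7.68 and 7.83 after Con A, a narrow spread in both groups. Dusp8 rose by 0.80 (95% interval 0.56 to 1.05, adjusted p = 0.0035), and with an array left out the rise ranged from 0.76 to 0.89 and passed each time. A dimmer probe set of the same gene went from 6.11, 6.09 and 6.03 to 6.51, 6.47 and 6.75, higher by 0.50 (adjusted p = 0.0146 over all rows with a symbol). Without detection calls the level of Dusp8 in these cells is not established, and differences this low on the scale may be compressed. Among all genes Dusp10, Dusp16 and Dusp8 ranked 172nd, 240th and 435th from the top.

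The broad nuclear phosphatases showed no difference past the threshold. Dusp1, which encodes MKP-1, the early brake on p38 and JNK in macrophages, was near the top of the scale at 13.10, 12.88 and 13.42 after PBS and 13.24, 13.31 and 13.45 after Con A. The groups overlapped, and the difference was 0.20 (95% interval -0.12 to 0.53, adjusted p = 0.433). The interval excludes a 2-fold difference in either direction on this scale, which may be compressed where Dusp1 lies. Dusp2, which encodes the nuclear phosphatase PAC-1, read 8.28, 7.93 and 8.85 after PBS and 8.09, 8.32 and 8.91 after Con A. Its difference of 0.09 (95% interval -0.55 to 0.73, adjusted p = 0.882) was within the spread of either group, and it was -0.12 without PBS replicate 2 and became -0.14 if Con A replicate 3 was left out.

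Dusp4, which encodes MKP-2, lay below the array medians at 6.15, 6.19 and 6.42 after PBS and 6.49, 6.52 and 6.71 after Con A. The groups did not overlap, though PBS replicate 3 came within 0.07 of Con A replicate 1. The difference was 0.32 (95% interval 0.08 to 0.56, adjusted p = 0.0955), and without PBS replicate 3 it was 0.41 (adjusted p = 0.0315). Without detection calls, whether these cells express Dusp4 stays unknown.

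**Figure D2:**
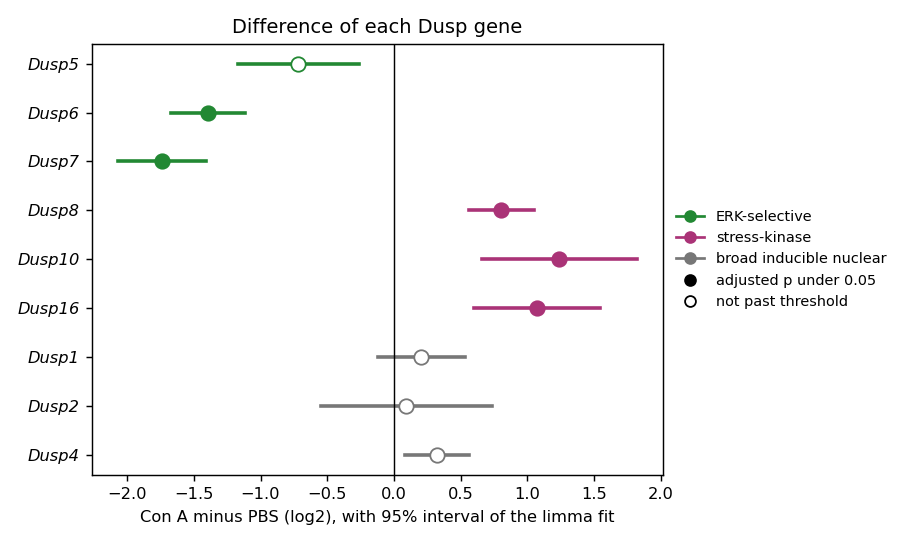
Con A minus PBS difference of each Dusp gene on the log2 scale with the 95% interval of the limma fit, coloured by class; filled points have an adjusted p under 0.05. The ERK-selective genes lie between -1.74 and -0.72, the stress-kinase genes between 0.80 and 1.24, and the broad nuclear genes between 0.09 and 0.32.

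Set against the PBS mean of each gene, the 3 ERK-selective genes averaged -1.34, -1.40 and -1.10 on Con A arrays 1 to 3. The 3 stress-kinase genes averaged 1.02, 0.96 and 1.13 on the same arrays. On every Con A array the classes stood apart, by 2.36, 2.36 and 2.24 (stress-kinase minus ERK-selective). On the PBS arrays that gap was -0.27, -0.20 and 0.47, the last in PBS replicate 3. There the stress-kinase genes lay 0.37 and the broad genes 0.32 above their PBS means, and the ERK-selective genes 0.10 below. The broad genes averaged 0.03, 0.14 and 0.45 on Con A arrays 1 to 3, so PBS replicate 3 exceeded 2 of the 3 Con A arrays in that class. These averages describe genes chosen with results known and carry no test.

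**Figure D3:**
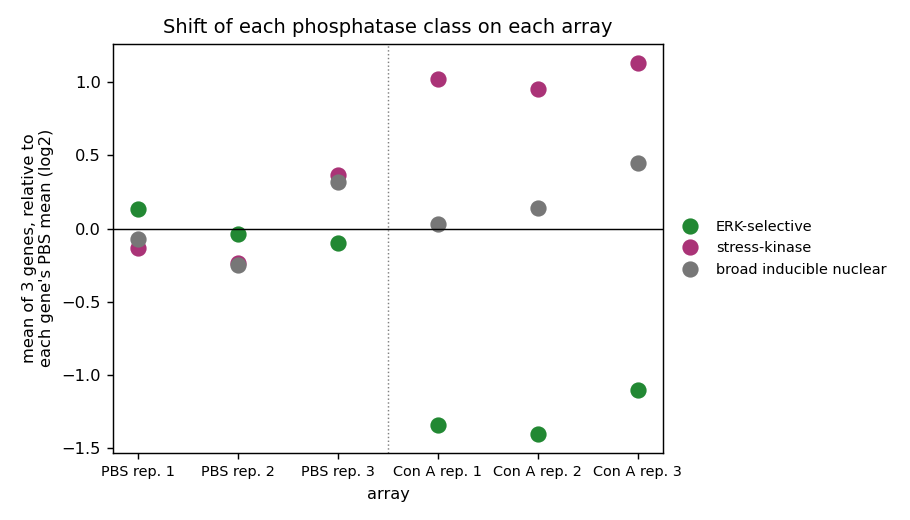
Mean of the 3 genes of each phosphatase class on each array, relative to the PBS mean of each gene, on the log2 scale. On Con A arrays the stress-kinase class lies between 0.96 and 1.13 and the ERK-selective class between -1.40 and -1.10, while the broad class overlaps between the groups.

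Values over the 6 arrays were centred on the mean of each gene. By a fixed rule the 3 closest genes to each called member were taken, leaving out members, predicted genes, clone-named genes and small RNAs. For Dusp7 they were Idh1, Klhl42 and Rassf3, with root-mean-square differences of 0.07, 0.09 and 0.09 on the log2 scale. For Dusp6 they were Fbxo31, Phospho1 and Cdc42ep3 (0.09, 0.10 and 0.10). Nearest to Dusp8 were Pmvk, Chka and Zswim7 (0.05, 0.06 and 0.06), and nearest to Dusp16 were the death receptor gene Fas, Arf2 and the class I regulator gene Nlrc5 (0.11, 0.11 and 0.12). Dusp10 had looser neighbours, C3ar1, Myc and Ifng at 0.16 each. These neighbours were picked for likeness of values and not for function.

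The called genes of the ERK arm, its kinases and adaptors, showed no shared direction. Of 18 listed genes 12 were measured and the rest are not analysed here. Of the 12 measured, 2 rose and 2 fell, where 4.59% of all genes rose and 7.22% fell. Arrays of the groups did not overlap for 2 genes higher and 6 lower, against 14.4% and 15.6% of all genes. The median difference was -0.10 against 0.02 over all genes. Nras, which encodes a Ras protein, rose by 0.55 (adjusted p = 0.00284), and Map3k8, which encodes the ERK-activating kinase TPL2, rose by 0.58 (adjusted p = 0.0333). Mknk2 and Mknk1, which encode kinases that ERK and p38 activate, fell by 0.79 (adjusted p = 0.00501) and 0.45 (adjusted p = 0.0182). Without PBS replicate 1, PBS replicate 2, Con A replicate 2 or Con A replicate 3 the calls of Map3k8 (adjusted p = 0.094, 0.0689, 0.128 and 0.108) and of Mknk1 (0.0733, 0.0572, 0.071 and 0.0532) were lost, and the number of calls in the list was 2 each time.

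Of 22 listed genes of the JNK and p38 arms 20 were measured, 2 rose and 4 fell, with a median of -0.19. Of all genes, 4.59% rose and 7.22% fell. Arrays of the groups did not overlap for 3 genes higher and 10 lower, against 14.4% and 15.6% of all genes. The upstream kinase genes Map3k4, Map3k1 and Map3k2 fell by 0.69 (adjusted p = 0.00515), 0.56 (0.0175) and 0.47 (0.00559), and Rps6ka5, which encodes the p38-activated kinase MSK1, fell by 0.48 (0.0447). The genes that rose were Mapkapk2, which encodes the p38 substrate kinase MK2, by 0.45 (adjusted p = 0.0136) and Mapk8, which encodes JNK1, by 0.41 (0.0187), both named after their values were seen. The number of calls in this list was 2 without PBS replicate 1. It was 3 with Con A replicate 2 or Con A replicate 3 left out. Without those 3 arrays in turn Mapk8 had an adjusted p of 0.0649, 0.0732 and 0.0601, and without PBS replicate 2 of 0.0604. Mapkapk2 had 0.0639, 0.0578 and 0.0521 in those fits. Map3k1 had 0.0738 without PBS replicate 1. Rps6ka5 kept its call with PBS replicate 3 left out and lost it with any other array left out, at adjusted p from 0.0621 to 0.157, and with arrays centred on their medians (0.054) or quantile normalized (0.0695).

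Among other inhibitors of Ras and ERK, more genes were called lower than higher. Of 19 measured genes 1 rose and 4 fell, with a median of 0.07. Of all genes, 4.59% rose and 7.22% fell. Rasa3, a Ras GTPase-activating protein gene, fell by 1.14 (adjusted p = 0.00117), and the adaptor genes Dok3 and Dok1 fell by 0.71 (0.00955) and 0.64 (0.0321). Spry1, a Sprouty feedback inhibitor gene, rose by 0.54 (adjusted p = 0.0109). Rasa1, named after its value was seen, fell by 0.38 (adjusted p = 0.0269). The number of calls was 2 without PBS replicate 1, and 3 without PBS replicate 2 or Con A replicate 2. Leaving out PBS replicate 1 gave Dok3 an adjusted p of 0.0504. Without PBS replicate 1, PBS replicate 2, Con A replicate 1 or Con A replicate 2, Dok1 had 0.0713, 0.0588, 0.0951 and 0.114, and Rasa1 had 0.101, 0.0579, 0.0866 and 0.0906.

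The remaining dual-specificity and MAP kinase tyrosine phosphatases gave 0 of 23 genes higher and 4 lower by limma, with a median of -0.03. Of all genes, 4.59% were higher and 7.22% lower. At an unadjusted p under 0.05 Dusp14 alone was higher, by 0.24 (adjusted p = 0.122), against 2185 of all 19938 genes. The genes that fell were the Slingshot genes Ssh2, Ssh1 and Ssh3, whose products act on the actin regulator cofilin, and Ptpn7, whose product acts on ERK and p38. Ssh2 fell by 1.08 (adjusted p = 0.0011), Ssh1 by 0.65 (0.0499), Ssh3 by 0.49 (0.00997) and Ptpn7 by 0.61 (0.0323). None of the atypical Dusp genes in this list passed the test, nor did Dusp9, the remaining ERK-selective phosphatase gene, at 7.28 to 7.39 after PBS and 7.32 to 7.44 after Con A. The number of calls was 2 without PBS replicate 1 or Con A replicate 1. Ssh1 lost its call without PBS replicate 1, PBS replicate 2, PBS replicate 3 or Con A replicate 1 (adjusted p = 0.159, 0.0964, 0.0745 and 0.0809), and narrowly with medians centred (0.0577) or all its rows averaged (0.0501). Ptpn7 lost it without PBS replicate 1, Con A replicate 1, Con A replicate 2 or Con A replicate 3 (adjusted p = 0.0918, 0.0571, 0.124 and 0.0996) and with quantile normalization (0.0518).

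Transcripts known to respond to ERK were called in both directions. Of 17 measured, 3 rose and 1 fell, with a median of 0.14, where 4.59% of all genes rose and 7.22% fell. Spry2, Spry4, Spred1 and Spred2 also belong to the inhibitor list. Ier3, an early response gene, rose by 1.44 (adjusted p = 0.0178), Etv5, which encodes an ETS factor, by 1.22 (0.00104) and Myc by 0.96 (0.0404). Fos, which encodes an AP-1 subunit, fell by 0.74 (adjusted p = 0.00926), the same direction as Dusp6 and Dusp7. Etv5 and Dusp6 are often read together as ERK outputs, and here they differed in sign. ERK activity was not measured, and the cause of either difference was not tested. The number of calls was 2 without PBS replicate 1, Con A replicate 2 or Con A replicate 3, where Ier3 had an adjusted p of 0.0837, 0.0821 and 0.0671. Myc kept its call with PBS replicate 3 left out and lost it with any other array left out, at adjusted p from 0.0797 to 0.139.

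**Figure D4:**
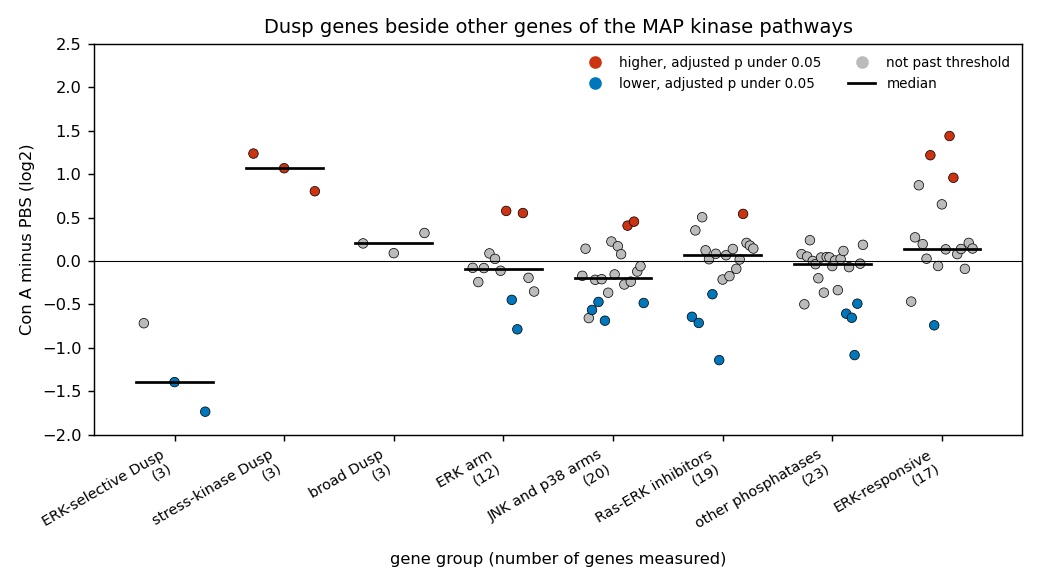
Con A minus PBS differences on the log2 scale for the Dusp classes and for 5 lists of MAP kinase pathway genes, 1 point per measured gene, with red and blue for an adjusted p under 0.05 and a bar at the median. The list medians lie between -0.19 and 0.14, and those of the ERK-selective and stress-kinase classes at -1.39 and 1.07.

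Markers of monocytic cells were also lower after Con A. In bulk RNA, fewer cells of a type and less RNA per cell cannot be told apart. Of 11 measured monocytic markers 6 fell and 0 rose by limma (10 lower and 0 higher at an unadjusted p under 0.05). Of all 19938 genes, 7.22% fell and 4.59% rose by limma. At an unadjusted p under 0.05, 2741 of all genes were lower and 2185 higher. The monocytic list averaged 11.11 to 11.44 on the PBS arrays and 10.04 to 10.50 on the Con A arrays. By size, F13a1, Ccr2 and Cx3cr1 fell by 2.16, 2.00 and 1.81, each by more than Dusp7. The 13 granulocytic markers averaged 13.18 to 13.32 after PBS and 13.22 to 13.24 after Con A, and 1 of them, Mmp9, fell. Of 11 eosinophil, basophil and mast cell markers 5 rose and 0 fell by limma (8 and 0 at an unadjusted p under 0.05), with list averages of 7.64 to 8.20 and 8.34 to 9.20. The part of these cell markers in the Dusp differences was not tested.

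The 12 T and NK cell markers averaged 6.75 to 6.93 after PBS and 6.69 to 7.10 after Con A, around or below the array medians. Of these markers 0 passed the test by limma. At an unadjusted p under 0.05, 3 were higher, against 2185 of all 19938 genes. The 6 B cell markers averaged 6.51 to 6.88 and 6.52 to 6.67, with 1 that fell by limma. At an unadjusted p under 0.05, 3 of them were lower and 0 higher, against 2741 lower of all 19938 genes. In Con A replicate 2 the 10 Kupffer cell markers averaged 9.28 and the 9 hepatocyte markers 7.45, against 7.55 to 8.15 and 6.41 to 6.55 on the other arrays. By limma 0 members of the Kupffer cell and hepatocyte lists passed the test, and 0 had an unadjusted p under 0.05. Endothelial markers averaged 6.98 to 7.37 over all arrays, with 1 of 8 higher and 1 lower. Pecam1 rose by 1.55 (adjusted p = 0.00176) and Lyve1 fell by 1.335 (adjusted p = 0.0111). Of all genes, 4.59% rose and 7.22% fell by limma. Without Con A replicate 2 the differences of Dusp6, Dusp7, Dusp8 and Dusp10 were -1.38, -1.63, 0.87 and 1.38, all past the threshold (adjusted p = 0.00878, 0.00608, 0.013 and 0.045), and that of Dusp16 was 0.99 (adjusted p = 0.0725).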

How the data were processed

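Per the labels' protocols, RNA of the 6 samples went through whole-transcriptome amplification and biotin labelling. The deposited values are log2 levels per probe set of a mouse Affymetrix gene array. The submitters' processing notes name RMA and Partek and give no version. Differences near both ends of such a scale may be compressed. The build of the array annotation is not stated in the sources, and the promoter windows alone carry coordinates.

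Of 35556 rows, 21789 had 1 gene symbol, 1621 several and 12146 none. Only rows with 1 symbol were used, and of several rows of a gene the brightest on average was kept, which left 19938 genes. Symbols were compared with RefSeq (GRCm38.p6) through Entrez numbers; 0 changed, and 91 rows had no match. No pair of arrays was identical. The groups were compared with no covariate in limma 3.58.1 (R 4.3.3), by two-sided moderated tests from lmFit and eBayes. The fit was tested on simulated data. Plots were drawn with matplotlib 3.10.9 and pandas 2.3.3 under Python 3.11.15. The 183 list entries gave 171 matches. Members, lists and tests were chosen with earlier results of these data known. Named genes were all members, up to 4 called members of each pathway list with the largest differences, and 3 genes of like pattern per called member. Mapk8, Mapkapk2, Rasa1, Dusp9, Dusp14, Mmp9, F13a1, Ccr2, Cx3cr1, Pecam1 and Lyve1 lie outside that rule and were named after their values were seen. Itgam and Ly6g were named as markers of the sort. Precision is limited by the number of arrays. The alternatives were 6 fits with an array left out, the replicate number as a block, centring on medians, quantile normalization, a minimum mean of 6, row averages, trended robust moderation and array weights.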

Additional observations from a re-analysis of the deposited data

How the results depend on the processing

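Over 13 alternatives, 115 of 117 values of the 9 members kept their direction, and Dusp6, Dusp7, Dusp8 and Dusp1 also kept their side of the threshold in all of them. The exceptions in direction were both of Dusp2. With 1 array left out, the count of all genes past the threshold ranged from 1140 to 2765 and that of members from 3 to 6. Counts ranged from 2 to 4 for the ERK arm, 2 to 8 for the JNK and p38 arms, 2 to 6 for the Ras-ERK inhibitors, 2 to 3 for the other phosphatases and 2 to 5 for the ERK-responsive transcripts. Differences ranged from -0.93 to -0.55 for Dusp5, 1.04 to 1.51 for Dusp10, 0.84 to 1.25 for Dusp16, -0.14 to 0.34 for Dusp2 and 0.25 to 0.41 for Dusp4. Leaving out PBS replicate 2 turned Dusp2 to -0.12, and leaving out Con A replicate 3 turned it to -0.14. These fits had fewer arrays.

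Same-numbered arrays did not deviate together throughout (correlations of 0.23, -0.17 and 0.56 over genes for replicates 1 to 3). PBS replicate 2 correlated best with Con A replicate 1 (0.54). The deviations are from means of 3 arrays and so constrain one another. They cannot decide whether same-numbered arrays were paired. With the replicate number as a block 2539 genes passed, as did 7 members, with Dusp5 at -0.72 (adjusted p = 0.0122) and Dusp4 at 0.32 (adjusted p = 0.0496), and 7 ERK-responsive transcripts. Rps6ka5 lost its call there (adjusted p = 0.0586). With array weights Dusp4 stood at 0.37 (adjusted p = 0.0395). The cause of these changes was not tested. No alternative moved the median difference of all genes by over 0.1. Levels under the array medians of about 7.05 carry the least weight, since detection calls were not used here. Dusp4 lay there on all arrays, as did the dimmer probe set of Dusp8. The brighter probe set of Dusp8 read 6.90 and 6.92 on PBS arrays 1 and 2.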
